A study of Mus musculus
Mus spretus with 18 samples.

Results

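The heat shock protein and DnaJ genes are the main chaperone families of the mouse. They were taken here as every gene whose symbol starts with Hsp followed by a number or by a, b, d, e or h, or with Dnaj followed by a, b or c and a number. This rule found 84 of the 38924 genes in the expression table, under 83 symbols because Hspa14 is listed as 2 gene identifiers, and 9 of the 84 are pseudogenes by their symbols. It also found 431 of 125200 skipped exon (SE) events and 14 of 2243 retained intron (RI) events.

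The data are RNA-seq libraries from F1 hybrids of C57BL/6J, a laboratory strain, and SPRET/EiJ, an inbred strain of Mus spretus, in which every cell carries one genome of each parent. There were 9 groups with 2 libraries each, 18 in all: cerebral cortex, heart, kidney, lung, spleen and liver of animals aged 8 weeks, embryonic stem cells (ESC), and a fibroblast line given either DMSO or pladienolide B at 0.1 µM for 4 h. Pladienolide B binds the splicing factor SF3B1 and blocks the removal of introns. According to the study's methods the organs came from female mice, the liver libraries had been made for an earlier study and the ESC replicates are separate clones, so in ESC a difference between replicates is also one between clones. The organs were taken from the same pair of mice, so libraries of different organs are not independent, and the labels do not say which library came from which mouse. The strain field of the liver labels reads C57BL/7J x SPRET/EiJ and C57BL/8J x SPRET/EiJ, where the other labels read C57BL/6J x SPRET/EiJ. The 2 fibroblast libraries of a condition come from 1 line, and p-values measure only the spread between the libraries given, which may be technical.

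Of 40 marker genes of the labelled tissues, 38 were highest in their own tissue. The exceptions were the fibroblast markers Col3a1, which was higher in lung, and Thy1, which was higher in cortex. Junction reads counted in SE events ranged from 46.6 M to 151.8 M per library, and between 48.3% and 53.8% of the allelic reads were assigned to C57BL/6J. Among the members, replicate agreement was poorest in ESC, where 27 of 70 members with a mean of a TPM (the share of transcripts of the library that come from a gene, scaled to a fixed sum) of at least 1 differed more than 1.5-fold between the clones, against at most 5 in any other group.

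Chaperones bind unfolded or partly folded proteins. Hsp70 proteins do so in a cycle driven by ATP, DnaJ proteins (the J-domain or Hsp40 proteins) start that cycle and bring clients to it, and Hsp110 proteins end it by exchanging the nucleotide. Hsp90 proteins act later on kinases and receptors, small heat shock proteins hold unfolded proteins without using ATP, and the Hspd1-Hspe1 chaperonin folds proteins inside mitochondria. Part of the family is induced by heat through the factor Hsf1, and another part serves the endoplasmic reticulum (ER), where it is induced by unfolded secretory proteins.

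Expression in fibroblasts given pladienolide B was first compared with that in DMSO. After 4 h most members were lower as a share of the library, and the DnaJ genes lay lower than the Hsp genes. A member was tested where it reached a TPM of 1 in at least 2 of the 4 libraries, which held for 62 of 84, and was called at an adjusted p under 0.05 in limma. Of these 62, 10 rose, 44 fell and 8 were not called, or 16.1% higher and 71% lower. Among all 13577 genes tested, 89% were called, 15.6% higher and 73.4% lower, so the members were called about as often as other genes. The median log2 fold change of the members was −0.98, against −1.15 for all genes tested, and 32 of the 62 lay above the median of all genes.

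TPM values are shares of a library, and the fall in most genes moved this scale. When libraries were instead scaled by the median of ratios, the median of all genes was 0.0023 and that of the members 0.20, with 31 members higher and 26 lower. On that scale 44.2% of all genes were higher and 43.9% lower. Genes outside the naming rule given with the methods were chosen after their values were seen. Values below are for TPM as deposited, log2 fold changes are differences of log2(TPM + 0.1), and a gene with a change above −1.15 fell less than the median gene.

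Hsp and DnaJ genes were described separately. Of 24 Hsp genes tested 6 rose and 13 fell, with a median log2 fold change of −0.46, and 17 lay above the median of all genes. Of 38 DnaJ genes 4 rose and 31 fell, with a median of −1.57, and 15 lay above the median of all genes. With median-of-ratios scaling the medians were 0.72 for Hsp genes (16 higher, 5 lower) and −0.39 for DnaJ genes (15 higher, 21 lower). The plot of log2 fold changes by gene shows both sets.

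**Figure D1:**
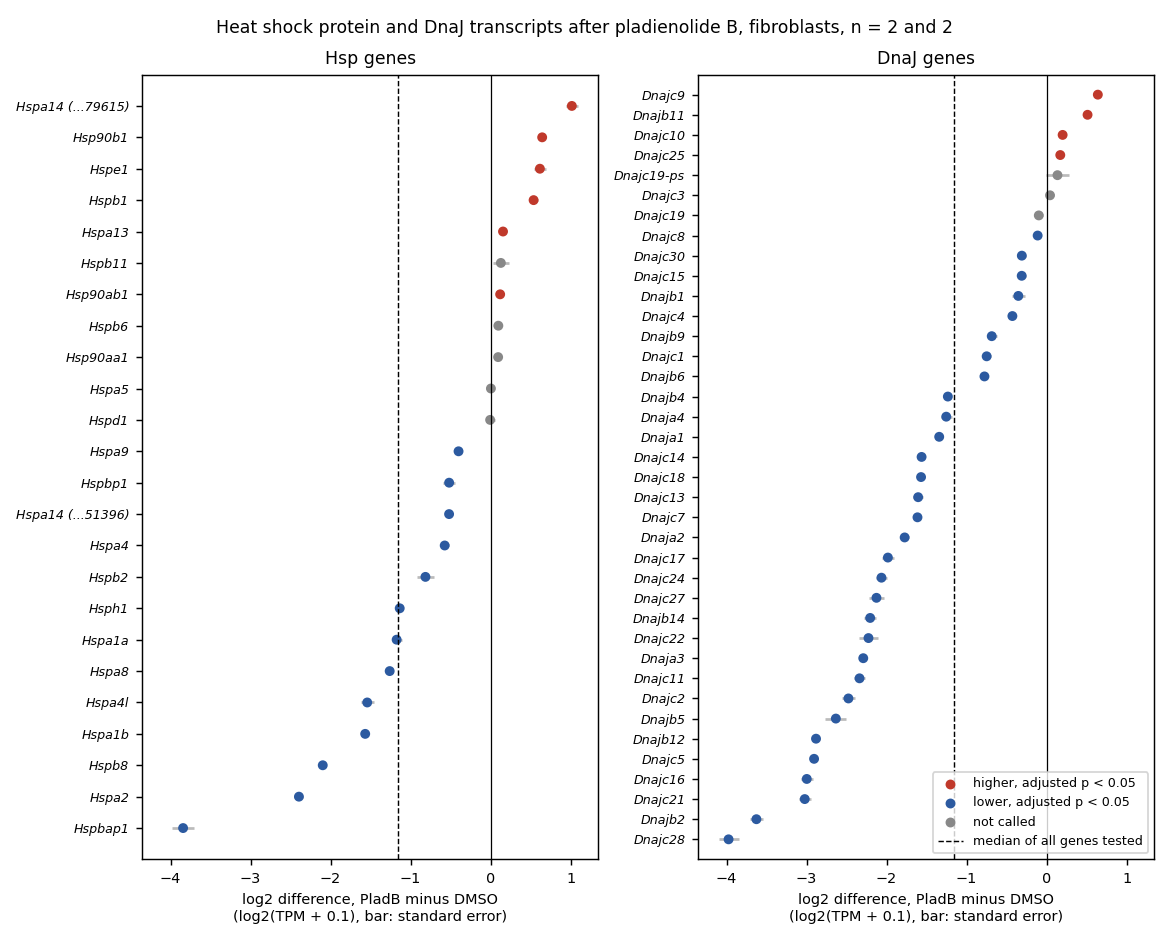
Log2 fold change of each of the 62 members tested (x axis, pladienolide B minus DMSO, log2(TPM + 0.1), bars are standard errors) for Hsp genes on the left and DnaJ genes on the right, with 2 libraries per condition. Red points rose, blue points fell, grey points were not called, and the dashed line marks the median of all genes at −1.15. 17 of 24 Hsp genes and 15 of 38 DnaJ genes lie to the right of it.

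Of the 3 Hsp90 genes 2 rose and 1 was not called. Hsp90ab1, the constitutive cytosolic form and the most abundant member in these cells, had 2278 and 2311 TPM in DMSO and 2533 and 2448 in pladienolide B. The values after treatment were above both controls, and the log2 fold change was 0.12 ± 0.03 (SE, n = 2 per group, limma adjusted p = 0.022). The inducible form Hsp90aa1 had 683 and 675 TPM in DMSO and 745 and 704 in pladienolide B and was not called (0.09 ± 0.04, limma adjusted p = 0.079). The ER form Hsp90b1 went from 961 and 941 TPM to 1519 and 1452, a 1.56-fold rise. With median-of-ratios scaling all 3 were called higher, with log2 fold changes of 1.27 for Hsp90aa1, 1.30 for Hsp90ab1 and 1.82 for Hsp90b1.

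Of 9 Hsp70 genes tested 2 rose, 6 fell and 1 was not called, and with median-of-ratios scaling 5 were higher and 2 lower. Hspa8, the constitutive cytosolic Hsp70, had 1459 and 1441 TPM in DMSO and 590 and 620 in pladienolide B. Both treated libraries lay below both controls, a 2.40-fold fall (−1.26 ± 0.04 on the log2 scale, limma adjusted p = 5.7e-06). With median-of-ratios scaling this was −0.08 with an adjusted p of 0.11, so Hspa8 moved with the median gene. Hspa5 (BiP), the Hsp70 of the ER, had 578 and 585 TPM in DMSO and 581 and 585 after treatment, a log2 fold change of 0.00 that was not called. Hspa9, the mitochondrial Hsp70, fell from 278 in each control to 212 and 208 TPM, and was higher with median-of-ratios scaling (0.78). The testis-enriched Hspa2 changed most among the 9 Hsp70 genes tested, with 36.3 and 35.2 TPM in DMSO and 6.54 and 6.89 in pladienolide B.

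The 12 members listed as heat-inducible did not rise as a set. The list includes Hspa8 and Hsp90ab1, described above as constitutive. Among the 12 genes 3 rose, 7 fell and 2 were not called, with a median log2 fold change of −0.75. With median-of-ratios scaling 6 were higher and 3 lower. Hspa1b, the classical stress-induced Hsp70, had 97.2 and 94.3 TPM in DMSO and 32.4 and 32.0 in pladienolide B (−1.57 ± 0.04). Hspa1a fell by 1.18 on the log2 scale, from 9.46 and 9.47 TPM to 4.16 and 4.11. Reads of Hspa1a and Hspa1b, which are near-identical in sequence, could be split between them, so their separate values are uncertain. Neither gene was higher under either scaling.

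The other heat-inducible genes covered a range from a fall to a rise. The Hsp110 genes Hsph1 (−1.14), Hspa4l (−1.54) and Hspa4 (−0.57), the last of which is not on the list, all fell. With median-of-ratios scaling Hspa4 was higher (0.60) and Hsph1 was not called (0.04). The cochaperone Dnaja1 had 71.3 and 73.8 TPM in DMSO and 28.3 and 28.7 in pladienolide B, a 2.54-fold fall. Dnajb1, the main Hsp40 of the heat shock response, fell least, from 93.6 and 94.0 to 67.6 and 79.6 TPM (−0.35 ± 0.08, limma adjusted p = 0.012), and with median-of-ratios scaling it was higher (0.82). The small heat shock protein Hspb1 had 17.1 and 18.6 TPM in DMSO and 25.7 and 26.1 after treatment, a 1.45-fold rise.

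Of the mitochondrial chaperonin pair 1 gene rose and the other was not called. Hspe1, the small subunit, had 123 and 140.3 TPM in DMSO and 207 and 196 in pladienolide B, a 1.53-fold rise (0.61 ± 0.07, limma adjusted p = 0.00079). Hspd1, the large subunit, had 302 and 316 TPM in DMSO and 322 and 294 in pladienolide B, and the groups overlapped. Of the 10 mitochondrial members, 1 rose and 7 fell, with a median log2 fold change of −0.36, while with median-of-ratios scaling 7 were higher and 3 lower. The lowest was Dnajc28, a DnaJ gene of little known function, with 7.2 and 7.81 TPM in DMSO and 0.35 and 0.42 after treatment, a 19.5-fold fall and the lowest change of any member.

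The 8 members listed for the ER fell less than most genes or rose. The list leaves out Dnajb12 and Dnajc14, ER membrane proteins that were lower with median-of-ratios scaling (−1.71 and −0.39). Of 8 genes 4 rose, 2 fell and 2 were not called, the median log2 fold change was 0.10, and all 8 lay above the median of all genes. With median-of-ratios scaling all 8 were higher. Dnajb11, a BiP cochaperone, had 127 and 132 TPM in DMSO and 188 and 181 after treatment (0.51 ± 0.04). Dnajc10, a disulfide reductase that works with BiP, had 117 and 115 and then 136 and 130.1 TPM (0.20 ± 0.04). Dnajb9, which represses the stress sensor Ern1, went the other way from 88.1 and 93.9 to 54.0 and 59.0 TPM (−0.69 ± 0.06), and was higher with median-of-ratios scaling (0.49).

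Most of the largest falls were in DnaJ genes. All 4 class A genes fell by between 1.26 and 2.29 on the log2 scale. Of 9 class B genes 8 fell and 1 rose, and of 24 class C genes 19 fell and 3 rose, while with median-of-ratios scaling 4 class B genes were lower and 4 higher and 14 class C genes lower and 10 higher. Dnajb2, a J-domain protein with ubiquitin-binding motifs, had 50.8 and 51.9 TPM in DMSO and 4.33 and 3.81 in pladienolide B, 12.6-fold lower (−3.63 ± 0.08). Both treated libraries lay far below both controls.

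Other DnaJ genes with large falls were expressed at intermediate levels in DMSO. Dnajc21, which takes part in the maturation of ribosomes, had 14.7 and 13.7 TPM in DMSO and 1.64 and 1.67 after treatment (−3.02 ± 0.08). Dnajc5, the cysteine string protein of secretory vesicles, had 47.6 and 46.4 and then 6.08 and 6.28 TPM (−2.91 ± 0.05). Dnajb12, an ER membrane protein, had 43.5 and 43.6 and then 5.79 and 5.85 TPM (−2.88 ± 0.05). Dnajc16 changed by −3.00, Dnajb5 by −2.63, Dnajc2, a ribosome-bound cochaperone, by −2.48, Dnajc11 by −2.34 and Dnaja3 by −2.29. Hspbap1, the gene of an Hspb1-associated protein, changed by −3.84 and was the only Hsp gene among the 4 lowest members. With median-of-ratios scaling each of these genes was still lower.

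A few DnaJ genes rose. Dnajc9, a histone chaperone, had 129.6 and 132 TPM in DMSO and 209 and 199 in pladienolide B, a 1.56-fold rise (0.64 ± 0.04, limma adjusted p = 6.5e-05). The other 3 were Dnajb11, Dnajc10 and Dnajc25 (0.17 ± 0.05). The 2 gene identifiers of Hspa14, a ribosome-associated Hsp70, went apart. ENSMUSG00000079615 had 5.96 and 5.42 TPM in DMSO and 11.6 in each treated library (1.01 ± 0.07), while ENSMUSG00000051396 had 13.1 and 13.0 and then 8.99 and 9.16 (−0.52 ± 0.05, and 0.65 with median-of-ratios scaling). Both carry the same symbol, reads that overlapped several genes had been counted as fractions, and how they were divided between the 2 was not tested.

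Other genes of the chaperone pathway were described for comparison. Of 31 tested genes that are not members, 4 rose and 22 fell, with a median log2 fold change of −0.94, while with median-of-ratios scaling 16 were higher and 12 lower. The heat shock factors Hsf1 (−2.16 ± 0.05) and Hsf2 (−3.07 ± 0.09) both fell. The lowest of this list were the cochaperone Ttc4 (−3.14), Hsf2 and the Hsp90 cochaperone Chordc1 (−2.76), and the highest were the ubiquitin ligase Stub1 (0.59), the mitochondrial exchange factor Grpel1 (0.22) and the small heat shock protein Cryab (0.20). Of 18 genes of the ER stress response, 11 rose and 6 fell, with a median of 0.32, and 15 lay above the median of all genes. Atf4, a transcription factor of the integrated stress response, had 501 and 499.8 TPM in DMSO and 1178 and 1285 in pladienolide B (1.30 ± 0.05), followed by Manf (0.76) and the protein disulfide isomerase Pdia6 (0.71). The stress sensors Ern1 (−2.11) and Eif2ak3 (−1.98) and the ubiquitin-domain protein Herpud1 (−1.73) were the lowest.

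The skipping of exons by pladienolide B was then examined. PSI is the share of transcripts that include an exon, computed from junction reads and the lengths over which they can map. Exons with at least 20 reads in each of the 4 libraries were tested with a quasi-binomial model of junction counts and were called at an adjusted p under 0.05 and a PSI change of at least 0.1. Among 199 exons of 51 member genes 4 were called, or 2.01%, all less included after treatment. Among all 41461 exons 6.24% were called, 6.13% less included and 0.116% more included. Most member exons were near full inclusion, with 179 of 199 above a PSI of 0.95.

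The 4 exons belong to DnaJ genes, but the tested exons were not counted by family, so whether DnaJ genes stand out was not tested. Dnajc14, an ER membrane protein, has a 103-nucleotide exon at chr10:128816958-128817060 (mm10, plus strand) that lies inside the gene, which spans 128804904 to 128819448. Its PSI was 1.00 in both DMSO libraries, where no skipping read was seen among 2450 and 2417 (a limit of 0.122% and 0.124% of reads, from a count of 3 and for counting error only), and 0.635 and 0.554 after pladienolide B. The change of −0.41 was the largest of any member exon (adjusted p = 0.00088 in the quasi-binomial fit across all exons). Dnaja2, a class A cochaperone of cytosolic Hsp70, has a 60-nucleotide exon at chr8:85553917-85553976 (minus strand) with a PSI of 1.00 in both controls and of 0.845 and 0.802 after treatment. Its skipping was read at high depth, with between 1523 and 11525 reads per library (a change of −0.18, adjusted p = 0.00083 in the same fit).

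The other 2 exons rested on fewer reads. In Dnajc21 the 123-nucleotide exon at chr15:10461876-10461998 (minus strand) had a PSI of 1.00 in both controls and of 0.710 and 0.931 after treatment, on 71 and 77 reads (−0.18, adjusted p = 0.0255 in the same fit). In Dnajc16 the 81-nucleotide exon at chr4:141766662-141766742 (minus strand) went from 1.00 and 0.996 to 0.899 and 0.824 on 44 and 41 reads (−0.14, adjusted p = 0.0335 in the same fit). The lengths of 3 of the 4 exons are multiples of 3, the exception being Dnajc14. The calls of all 4 were lost when either pladienolide B library was left out, as were all calls of the table, with PSI changes in Dnajc14 of −0.45 and −0.36.

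Smaller losses of inclusion were seen in more exons. Without the limit on the size of the change 33 of 199 member exons had an adjusted p under 0.05, all less included, against 12.7% of all exons, of which 12.4% were less and 0.285% more included. In 78 of 199 (39.2%) both treated libraries lay below both controls, against 31.2% of all exons. In Dnaja1 the 101-nucleotide exon at chr4:40732076-40732176 had PSI values of 0.995 and 0.994 in DMSO and of 0.928 and 0.901 in pladienolide B, on 3005 and 3244 reads in the treated libraries. That change of −0.08 had an adjusted p of 0.0024 in the quasi-binomial fit but fell short of the size limit. This exon was named after its values were seen.

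Retained introns could be read in few members. Of 11 introns in 7 member genes none passed both limits, against 37.9% of 1802 introns in the whole table, 35% more and 2.89% less retained. By adjusted p alone 7 were more retained and 1 less, against 54.3% of all introns, 47% more and 7.27% less retained. The unadjusted p was under 0.05 in 8 of the 11. The introns below were named after their values were seen.

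The 2 introns with the lowest adjusted p were in Hspa8, at chr9:40802128-40802417 (290 nucleotides) and chr9:40802624-40802738 (115 nucleotides) in mm10. The first was retained in 0.638% of transcripts on average in DMSO (PSI 0.0073 and 0.0055) and in 7.02% after pladienolide B (0.058 and 0.082), 11-fold more (adjusted p = 1.4e-07 in the quasi-binomial fit). The second went from PSI values of 0.0064 and 0.0054 to 0.060 and 0.086, 12.3-fold more (adjusted p = 7.9e-08 in the same fit). These introns were read at between 16944 and 51133 reads per library, and both treated libraries lay far above both controls. A further Hspa8 event that overlaps the second, at chr9:40802624-40802795, went the other way and did not pass (adjusted p = 0.17 in the same fit). Its PSI values were 0.996 and 0.998 in DMSO and 0.989 and 0.987 after treatment.

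The introns of Hsp90ab1 with an adjusted p under 0.05 were retained at lower levels. That at chr17:45569127-45569239 went from 0.0042 and 0.0029 to 0.027 and 0.036, 8.81-fold more. That at chr17:45571620-45571764 went from 0.00067 and 0.00082 to 0.011 and 0.015, 17.1-fold more. Another Hsp90ab1 event, at chr17:45571482-45571518, had a PSI of 0.999 in every library. The intron of Dnaja1 at chr4:40726210-40727955 had PSI values of 0.023 and 0.020 in DMSO and of 0.060 and 0.106 in pladienolide B. Introns of Dnajc11 (6.21-fold) and Hsp90b1 (2.02-fold) were also more retained. That of Dnajc11 had 9 and 14 intron reads in DMSO and 10 in each treated library. Its spliced reads went from 572 and 640 to 72 and 92. In Dnajc2 the intron at chr5:21761726-21763445 went the other way, from 0.022 and 0.021 to 0 and 0.0033. The first treated library had no intron read among 157, which allows up to 1.91% of reads, and the second had 1 among 150. The plot of PSI by library shows that all but the intron of Dnajc2 were higher in both treated libraries.

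**Figure D2:**
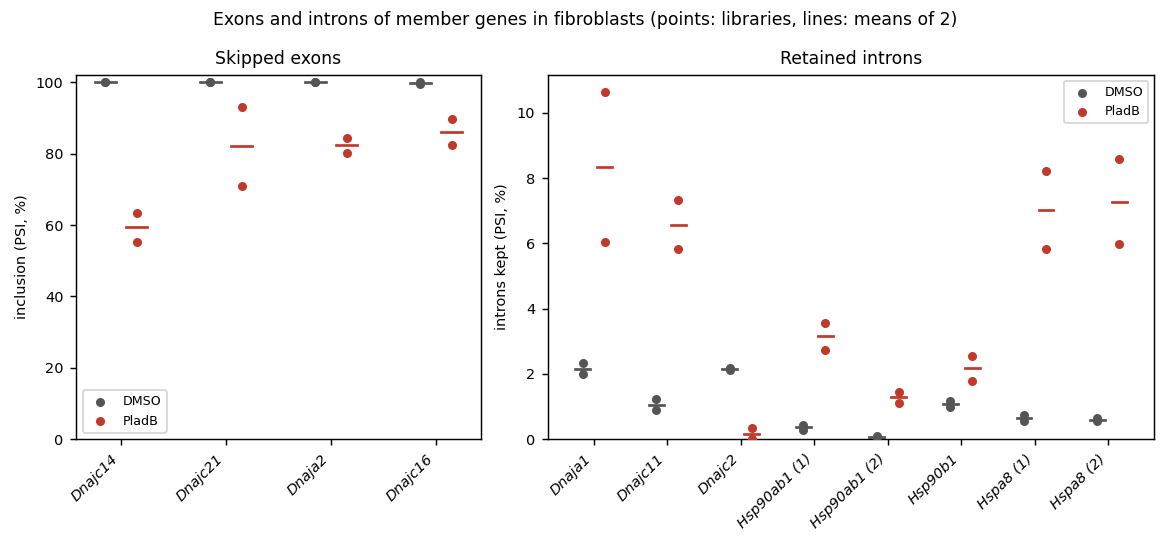
PSI in percent (y axes, each from 0) of the 4 called exons on the left and of the 8 introns with an adjusted p under 0.05 on the right, in fibroblasts given DMSO (grey) or pladienolide B (red). Points are libraries and lines are means of 2. Dnajc14 falls furthest, to 0.635 and 0.554, while the most retained of these introns by mean level, that of Dnaja1, reaches 0.060 and 0.106.

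Expression across the 7 tissues was examined next. A member was tested where it reached a TPM of 1 in at least 2 of the 14 libraries, and 73 of 84 did. The other 11 were 7 pseudogenes and Dnajb7, Dnajb8, Dnajc5b and Hspb9, and 4 of the 84 were listed at 0 in all 18 libraries. All 73 were called across tissues in limma, as were 99.5% of all 21925 genes tested. The median range between the highest and lowest tissue was 3.17 on the log2 scale in members and 4.26 in all genes. In tissues, fewer cells of a type and less RNA per cell cannot be told apart, and neither can liver and the earlier study its libraries came from.

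Members were most often highest in ESC (23 of 73), cortex (17) and heart (13) and most often lowest in liver (41). Of all 21925 genes tested 26% were highest in ESC, 26.5% in cortex and 6.76% in heart, and 52.4% were lowest in liver. Each tissue was also tested against the mean of the other 6, with a call at an adjusted p under 0.05 and a log2 difference of at least 1. In liver 44 members were lower and 2 higher, against 67.4% lower and 7.97% higher among all genes. In ESC 26 were higher and 12 lower (35.7% and 25% of all genes), in cortex 20 higher and 9 lower (35.4% and 20.2%), and in heart 18 higher and 17 lower (11.6% and 37.5%). In kidney 13 were higher and 9 lower (16.6% and 18.6%), in lung 12 and 8 (25.8% and 14.9%) and in spleen 4 and 10 (26.7% and 22.1%). The map of levels by library shows these blocks.

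**Figure D3:**
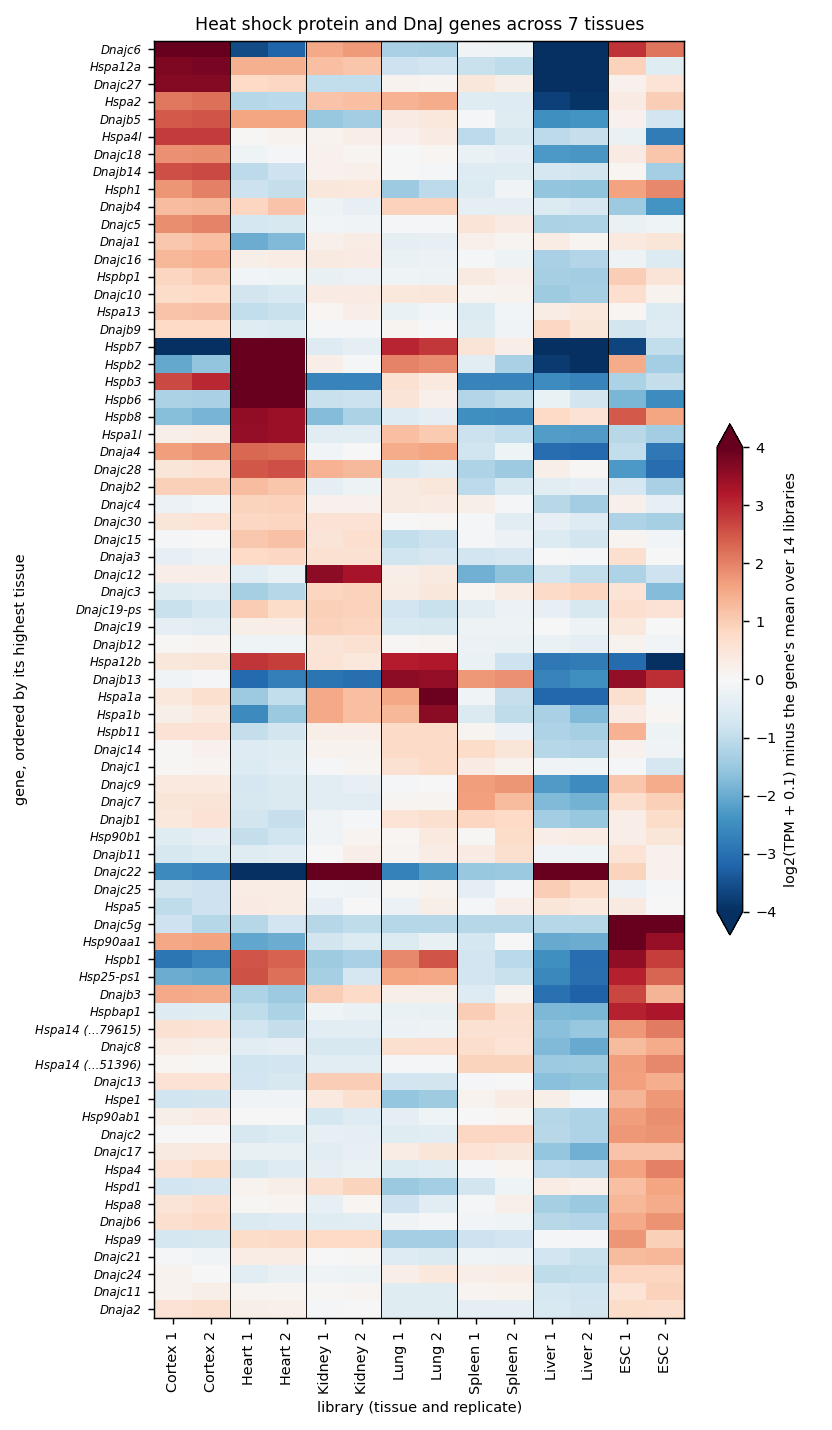
Level of 73 members (rows, grouped by the tissue in which each is highest) in the 14 tissue libraries (columns), as log2(TPM + 0.1) minus the mean of the gene over the 14 libraries. Red is above and blue below that mean, with colours at their limit beyond 4. 5 of the 7 genes listed as small heat shock proteins are highest in heart, and the liver columns are blue for most members.

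The genes listed as small heat shock proteins, with Hspb11 included by its symbol, were the most variable group. Their median range was 7.73 on the log2 scale, and 5 of 7 were highest in heart. Hspb7, the cardiovascular small heat shock protein, had 2338 and 2181 TPM in heart and 48.9 and 41.9 in lung, and at most 8.38 in any library of the other tissues. Heart exceeded the mean of the other 6 tissues by 10.02 ± 0.49 on the log2 scale (limma adjusted p = 7.8e-08), the largest difference of any member. Hspb6, which is phosphorylated in contracting muscle, had 687 and 621 TPM in heart and at most 19.5 in any other library. Hspb3 had 35.0 and 33.4 TPM in heart and 3.87 and 5.12 in cortex, and was listed at 0 in kidney and spleen. Hspb8 and Hspb2 were also highest in heart, with 818 and 776 TPM and with 210.1 and 174 TPM. Hspb1 was highest in ESC with 707 and 414 TPM, next in heart with 351 and 311 and then in lung with 229 and 353. Heart and lung overlapped, and the gap from ESC to heart was smaller than that between the 2 ESC clones.

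In cortex the members furthest above the other tissues were Dnajc6, Hspa12a and Dnajc27. Dnajc6 (auxilin), which uncoats clathrin vesicles at synapses, had 206 and 227 TPM in cortex, 30.1 and 17.9 in ESC and 11.5 and 13.0 in kidney. It had 0.237 and 0.337 TPM in heart and 0.0257 and 0.0273 in liver, and cortex exceeded the mean of the other tissues by 6.69 ± 0.18 on the log2 scale. Dnajc27, a Rab-like GTPase with a J domain, had 121 TPM in each cortex library and 0.339 and 0.408 in liver. Hspa12a, a distant Hsp70, had 161 and 171 TPM in cortex and 0.355 and 0.321 in liver. Dnajc5, the cysteine string protein, was also highest in cortex with 189 and 204 TPM and at most 74.2 elsewhere.

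In ESC 6 of the 12 heat-inducible members were highest, among them 2 of the 3 Hsp90 genes and both chaperonin subunits. Hsp90aa1 had 4128 and 2384 TPM in the 2 ESC libraries, 622 and 654 in cortex and 50.3 and 53.7 in heart, so both clones lay above every organ library although they differed from each other (4.52 ± 0.20 against the other tissues). Hsp90ab1 had 4254 and 4820 TPM in ESC and was next in cortex with 1556 and 1671. Hspa8 had 1356 and 1515 TPM in ESC and fell between 191 and 863 in the organs. Hspd1 (643 and 832) and Hspe1 (343 and 446), the chaperonin pair, were both highest in ESC and lowest in lung. Dnajc5g, a testis homologue of Dnajc5, had 17.0 and 20.2 TPM in ESC and at most 0.0303 in any other tissue library.

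Kidney and liver shared Dnajc22, a membrane J-domain protein, with 70.4 and 72.3 TPM in kidney and 108 and 113 in liver. It had 4.41 and 2.62 TPM in ESC and at most 0.771 in any library of the remaining tissues. Dnajc12, a cochaperone of the aromatic amino acid hydroxylases, had 134 and 111 TPM in kidney and at most 14.1 elsewhere. The second member called higher in liver was Dnajc25, with 12.4 and 10.6 TPM and a difference of 1.01 ± 0.11, just past the limit.

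In lung the highest was Dnajb13, a radial spoke protein of motile cilia, with 20.5 and 19.3 TPM. ESC had 19.4 and 13.1 and spleen 5.58 and 5.95, cortex had 1.45 and 1.53, and heart, kidney and liver had at most 0.209, so lung and ESC could not be separated beyond the spread of the ESC clones. Hspa12b, an Hsp70 of endothelial cells, had 39.2 and 40.5 TPM in lung, 32.3 and 30 in heart and 0.431 and 0.171 in ESC. In spleen Dnajc9 had 113 and 119.9 TPM against 75.3 and 99.1 in ESC, the next highest tissue. Dnajc7, which binds Hsp70 and Hsp90, had 266 and 205 TPM in spleen against 141 and 165 in ESC.

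The inducible Hsp70 genes were unequal between the 2 lung libraries. Hspa1a had 6.24 and 32.1 TPM there and Hspa1b 10.7 and 52.6, and among the 14 tissue libraries both were highest in the second of lung. In kidney, the next highest tissue, they had 6.00 and 4.80 and 12.4 and 9.86 TPM. Hspb1 differed in the same direction, with 229 and 353 TPM, and these 3 members were the ones that differed more than 1.5-fold between the lung libraries. Hsph1, Dnaja1 and Dnajb1, other heat-inducible members, had 14 and 18.8, 32.3 and 32.5, and 56.8 and 60.3 TPM in lung.

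The most even member was Dnajb12, which had the smallest range, 0.87 on the log2 scale, from 33.1 and 31.2 TPM in liver to 57 and 60.2 in kidney. Dnajb11 (1.07) and Dnajc1 (1.19), a J-domain protein of the ER membrane, came next. The 8 members listed for the ER had a median range of 1.39, against 3.17 for all members tested. Across tissues Hspa5 lay between 185 and 531 TPM and Hsp90b1 between 208 and 667.

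Exon inclusion across tissues was tested in 174 exons of 52 member genes with at least 20 reads in both libraries of 2 or more tissues. The switch score is the largest difference between the mean PSI of 2 tissues, and an exon was called at an adjusted p under 0.05 and a switch score of at least 0.1. This held for 13 exons in 12 genes (7.47%), against 7.8% of 40695 exons in all. By adjusted p alone 19 member exons passed, against 9.85% of all. 12 of the 13 exons are in DnaJ genes and 1 is in Hsph1. The 174 tested exons were not counted by family, so whether DnaJ genes stand out was not tested. The called exons were lowest in heart (6), ESC (4), cortex (2) or lung (1). They were highest in cortex (4), kidney (3), liver (3), spleen (2) or lung (1). These counts were not made over all called exons, so whether the members stand out in this was not tested.

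The widest switch was in Dnajb5, a class B gene expressed in brain and heart, at chr4:42950799-42950943 (145 nucleotides, mm10). Its exon had PSI values of 0.771 and 0.720 in cortex, 0.252 and 0.248 in lung and 0.041 and 0.047 in heart, and the other tissues lay between 0.043 and 0.156. The switch score was 0.70, and cortex stood apart from every other library although heart, with 38.4 TPM in each library, was the tissue nearest to cortex in level. Dnajc25, at chr4:59013632-59013855 (224 nucleotides), was likewise most included in cortex with 0.681 and 0.650, and had 0.148 and 0.169 in heart (switch score 0.51). In ESC the exon of Dnajc25 differed between the clones, with 0.413 and 0.217.

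Inclusion in Dnajc5 was lowest in cortex. Its 75-nucleotide exon at chr2:181548926-181549000 had PSI values of 0.058 and 0.050 in cortex, 0.168 and 0.174 in heart, and 0.443 and 0.530 in liver, with the remaining organs between 0.287 and 0.383 and a switch score of 0.43. In ESC it had 0.376 and 0.224. A second Dnajc5 exon at chr2:181521235-181521287 was lowest in heart (0.064 and 0.049) and highest in liver (0.268 and 0.168).

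Dnajb13 was read in 3 tissues at chr7:100507376-100507533 (158 nucleotides). Its exon had PSI values of 0.958 and 0.940 in lung, 0.340 and 0.454 in spleen and 0.243 and 0.314 in ESC, a switch score of 0.67. Lung and ESC, which had similar levels of the transcript, therefore differed in the form used.

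The other called exons of Dnajb4, Dnajc13 and Dnajc27 had smaller switch scores. Dnajb4, at chr3:152193377-152193618, had 0.722 and 0.744 in cortex, 0.890 and 0.932 in heart, at least 0.967 in kidney, lung, spleen and liver, and 0.899 and 0.895 in ESC (switch score 0.26). Dnajc13, an endosomal protein, had 0.767 and 0.843 in heart and at least 0.992 in kidney and lung, while its ESC clones had 0.820 and 0.983 (0.19). Dnajc27, at chr12:4103054-4103214, was lowest in ESC (0.846 and 0.776) and heart (0.780 and 0.846) and at 0.963 and 0.958 in cortex (0.15).

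Dnajc24, at chr2:105970448-105970516, was lowest in heart with 0.822 and 0.802 (0.14, adjusted p = 0.042 in the quasi-binomial fit). Dnajc18 was lowest in lung with 0.888 and 0.873 and overlapped there with spleen (0.12). Hsph1, at chr5:149623465-149623596, was lowest in heart with 0.890 and 0.884 and overlapped with kidney, which had 0.876 and 0.925 (0.10). The 100-nucleotide exon of Dnajc7 was mostly skipped and was most included in spleen, with 0.168 and 0.154 (0.14). Dnajc6 was called from ESC alone, where the clones had 0.385 and 0.801. Without the first ESC clone its switch score was 0.15 and it was no longer called, and without both ESC libraries it was 0.09, while 13 member exons were called in all. That alternative was chosen after seeing the data.

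**Figure D4:**
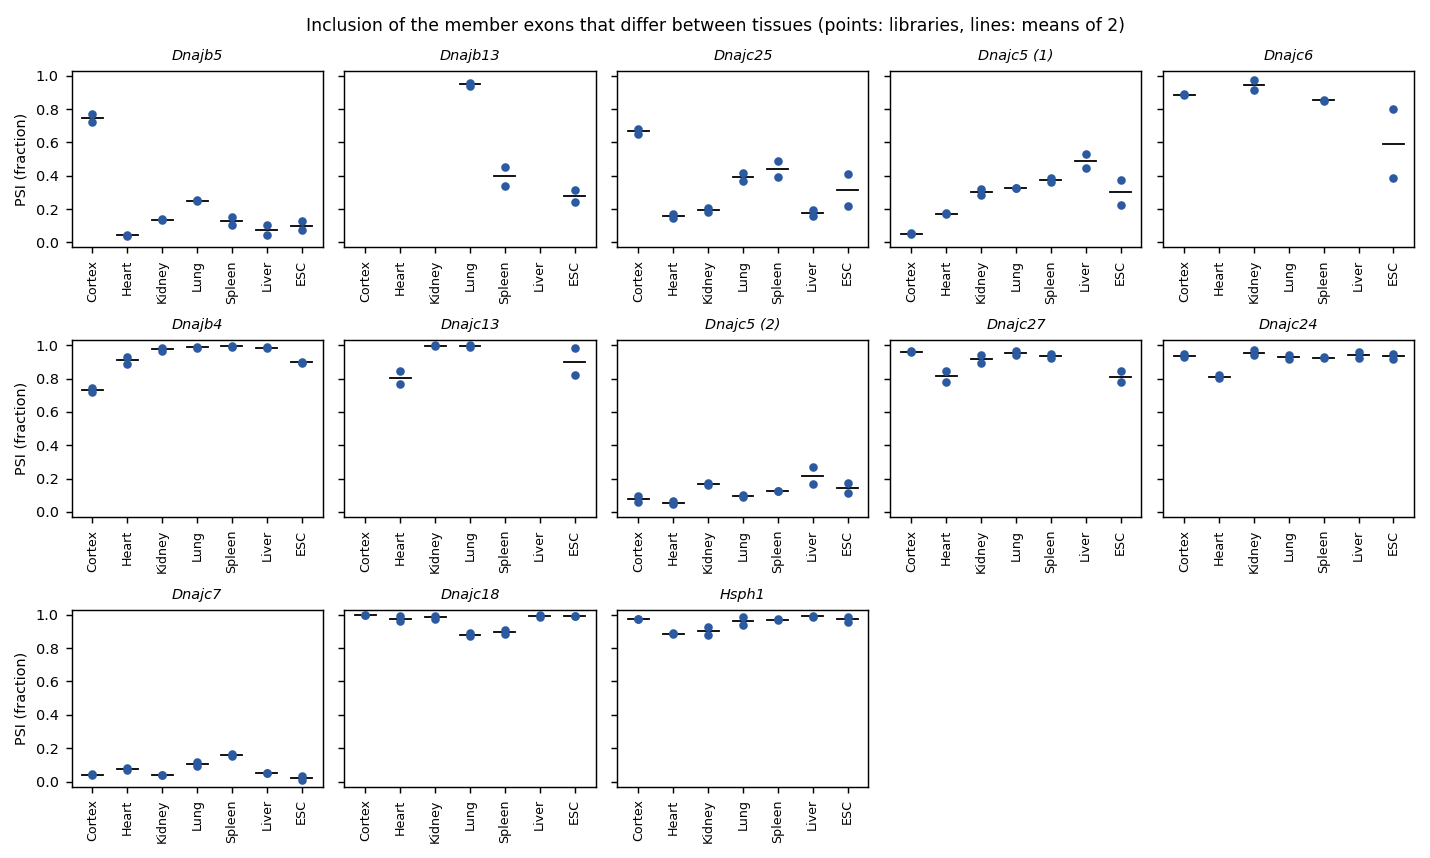
PSI (y axes, 0 to 1) of the 13 member exons called across tissues, in the order of their switch score, for each tissue with at least 20 reads in both libraries (x axes). Points are libraries and lines are means of 2, and (1) and (2) mark the first and second Dnajc5 exon described. Dnajb5 and Dnajc25 are highest and Dnajc5 (1) lowest in cortex, and the ESC points of Dnajc6, at 0.385 and 0.801, lie furthest apart.

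In a hybrid both alleles share one cell, so their PSI values can be compared in the same surroundings. Allelic PSI was compared within each of the 9 groups in exons with at least 20 reads per allele and library. It also had to lie within 0.1 of the PSI from all reads. This gave 813 tests on 254 exons of 59 member genes, of which 3 were called (0.369%), against 1.42% of 182413 tests in all. The median absolute difference was 0.0069 in members and 0.0100 in all exons, and 30 of the 813 member differences reached 0.1. With the library as a replicate block, since both alleles of a library come from the same animal or culture, no member exon was called and 1 in the whole table was, a fit that leaves 1 residual degree of freedom.

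The 3 calls, 1 each in heart, spleen and fibroblasts given pladienolide B, where 2.11%, 1.29% and 1.25% of all exons were called, were all of lower inclusion on the SPRET/EiJ allele. In heart the Dnajc27 exon at chr12:4103054-4103214 had PSI values of 0.956 and 0.986 on the C57BL/6J allele and of 0.706 and 0.807 on the SPRET/EiJ allele, a difference of 0.21 (adjusted p = 0.047 in the quasi-binomial fit). The C57BL/6J allele was more included in all 7 groups measured, by 0.05 to 0.21, and of these only the heart passed both limits. This is the exon that was least included in heart and ESC among the tissues.

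In spleen the 88-nucleotide Dnajc21 exon at chr15:10454770-10454857 had no skipping read on the C57BL/6J allele among 586 and 517 reads, which allows up to 0.512% and 0.580%, and PSI values of 0.834 and 0.830 on the SPRET/EiJ allele. That difference of 0.17 (adjusted p = 0.015 in the quasi-binomial fit) stood beside differences of 0.08 in lung and 0.06 in DMSO-treated fibroblasts and of under 0.05 in the other 5 groups, with C57BL/6J higher in all 8. In fibroblasts given pladienolide B the Dnajc4 exon at chr19:6989423-6989587 had 0.912 and 0.924 on the C57BL/6J and 0.699 and 0.759 on the SPRET/EiJ allele (0.19, adjusted p = 0.042 in the same fit). C57BL/6J was higher in all 9 groups, by 0.04 to 0.21. The largest of these differences was in ESC, where the clones had 0.869 and 0.533 on the SPRET/EiJ allele. A version of the exon that ends at 6989584 differed by 0.23 in fibroblasts given pladienolide B and was not called (adjusted p = 0.11 in the same fit). None of the 3 was called in more than 1 group, and whether groups differed was tested as an interaction.

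No member exon passed the test of an interaction. For allele by treatment 55 member exons were tested and 0 called, against 3 of 12284 exons in all (0.0244%), and 3 had an unadjusted p under 0.05. For allele by tissue 120 were tested and 0 called, against 6 of 28123 (0.0213%), and 2 had an unadjusted p under 0.05.

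The largest allelic difference was not called. In ESC the Dnajb13 exon at chr7:100507376-100507533 had PSI values of 0.170 and 0.183 on the C57BL/6J allele, from 165 and 68 reads, and of 1.00 and 1.00 on the SPRET/EiJ allele, where none of 59 and 47 reads skipped it (limits of 5.08% and 6.38%). Its difference of −0.82 had an adjusted p of 0.082 in the quasi-binomial fit, in a group in which 0.071% of all exons were called. In lung both alleles included the exon, with 0.944 and 0.942 against 1.00 and 0.986. The difference between the 2 tissues had an unadjusted p of 0.042 and an adjusted p of 1 in the interaction fit. This exon was named after its values were seen.

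**Figure D5:**
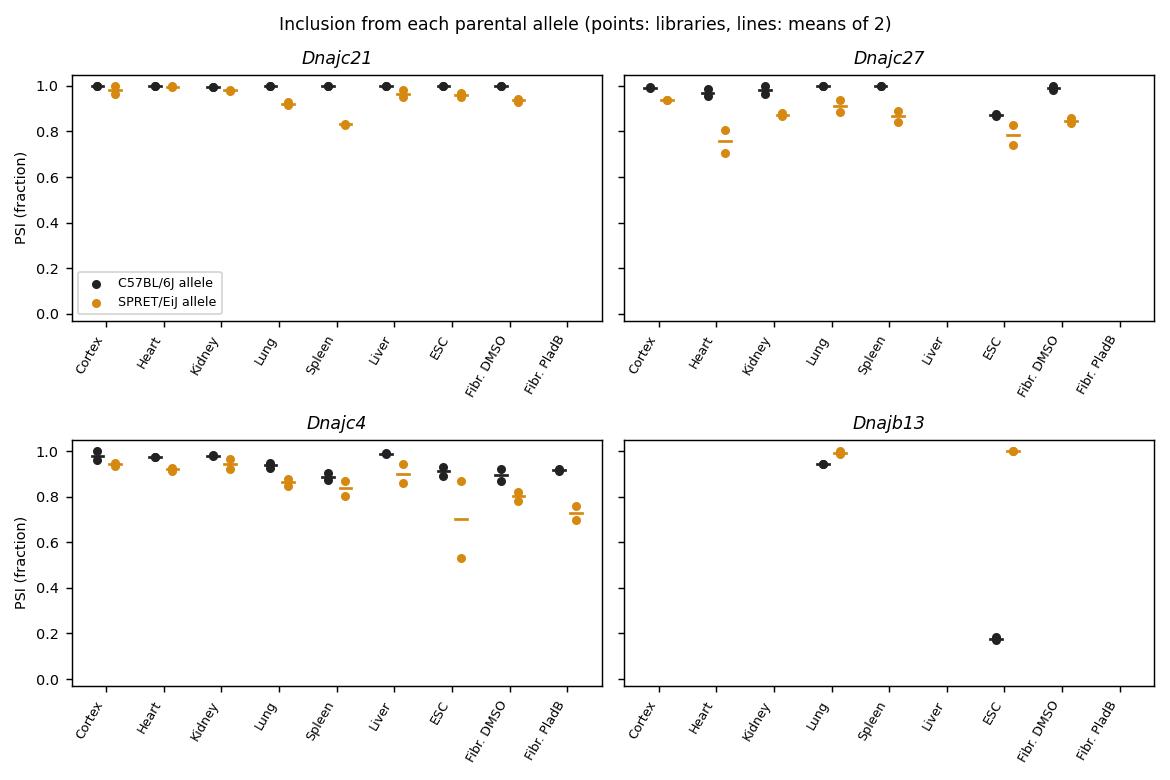
PSI (y axes, 0 to 1) on the C57BL/6J allele (black) and the SPRET/EiJ allele (orange) in each group with enough allelic reads (x axes) for the 3 called exons and for Dnajb13. Points are libraries and lines are means of 2. No orange point lies above a black point of the same group for Dnajc21, Dnajc27 and Dnajc4, while in ESC the Dnajb13 alleles lie at 0.170 and 0.183 against 1.00.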

How the data were processed

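RNA-seq libraries of 18 samples in 9 groups of 2 were analysed, grouped by GEO's labels. The authors mapped strand-specific reads with HISAT2 2.0.1 against both parental genomes (mm10 for C57BL/6J), took the better match of a read as its allele, and deposited TPM values per gene from featureCounts, where a read over several genes was split into fractions. The authors also deposited rMATS junction read counts per event, for all reads and for each allele, with the effective length of each form, a score of 150 and 75 read positions in tissues and of 298 and 149 in fibroblasts. Columns of the authors' own comparisons, which hold p-values, false discovery rates and inclusion levels, were not used.

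TPM was tested on log2(TPM + 0.1) with limma 3.58.1 in R 4.3.3, in genes with a TPM of at least 1 in 2 of the libraries compared, with Benjamini-Hochberg adjustment over all genes. PSI was the share of inclusion counts after division by effective length. The test of junction counts was a quasi-binomial regression, with dispersions moderated by limma along read depth and an F test, adjusted over all autosomal exons, and 3850 X-linked or other events were left out. Allelic PSI had to lie within 0.1 of that from all reads. The minimum was 20 reads per library, or per allele and library, and an exon stood for its best-covered event. Scripts were tested on simulated data, and TPM depth is unknown from the file. Read limits cover counting error only.

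The members and gene lists were chosen with earlier results of these data known. Named by rule were the heat-inducible list and the 12 other called members with the largest change, the 3 highest and 1 lowest of each tissue, the 3 most even members, the called exons (up to 12 per comparison, up to 5 per group for alleles) and the 3 pathway genes furthest in each direction. Alternatives were median-of-ratios scaling, another pseudocount, no filter on low TPM, all libraries in one fit, other read minimums and priors, a replicate block and leaving out each library. Leaving out both ESC libraries was added after seeing the data. Sequences were not used here, and locations of genes came from RefSeq on GRCm38.p6, which matched all 83 member symbols.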

Additional observations from a re-analysis of the deposited data

How the results depend on the processing

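The scaling of TPM decided the direction of many changes after pladienolide B. With median-of-ratios scaling 31 members were higher and 26 lower, the median log2 fold change was 0.20 in members and 0.0023 in all genes, and the log2 fold change changed sign in these members, of which Hspd1 and Dnajc19 had not been called and Hsph1 was not called after scaling: Dnajb1 0.82, Dnajb9 0.49, Hspa4 0.60, Dnajc15 0.87, Hspa9 0.78, Dnajc4 0.75, Hspd1 1.17, Dnajc1 0.42, Dnajc19 1.07, Dnajb6 0.40, Hsph1 0.040, Hspb2 0.35, Hspa14 (ENSMUSG00000051396) 0.65, Dnajc8 1.07, Dnajc30 0.87 and Hspbp1 0.66. With all 18 libraries in one fit 5 members were higher. Leaving out single libraries gave 7 to 13 members higher and 40 to 44 lower, and turned the sign of members that were not called, namely Hspa5 (−0.0057 to 0.011), Dnajc19-ps (−0.049 to 0.32), Hspd1 (−0.072 to 0.058), Dnajc3 (−0.017 to 0.099) and Hspb11 (−0.0021 to 0.26). For exons after pladienolide B, leaving out single libraries gave 0 to 4 called members and a replicate block gave 0. Across tissues, leaving out single libraries gave 11 to 14 called exons and the block 11, without Dnajc24 (adjusted p = 0.0637 in the quasi-binomial fit) and Dnajc6 (0.168). Between alleles the block gave 0, leaving out one allele of a library gave 0 in each case, a minimum of 50 reads gave 5, and leaving out exons with a PSI beyond 0.1 or 0.9 gave 9. The causes were not tested. Whether a replicate number marks the same mouse in each organ is not given in the sources used here. The numbers were not taken as pairs, since deviations of same-numbered libraries correlated at −0.0088 between DMSO and pladienolide B and over 0.1 in 4 of 21 pairs of tissues. The TPM file carries no depth, and in fibroblasts given pladienolide B low reads limit the exons of Dnajc21 and Dnajc16.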

Other observations

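The share of allelic junction reads assigned to C57BL/6J was not part of any comparison above and is given as values only. Over 357 gene and group values of 59 member genes, 285 lay between 40% and 60%, 40 above and 32 below. The same count was not made over all genes, so whether the members stand out in this was not tested. Hspa8 lay between 45% and 56.1% in every library.

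Some members differed between fibroblasts and tissues in this share, and those named were chosen after their values were seen. Over the exons of Dnaja1 that were read, 1 to 3 by group, the share was 53.6% to 56.5% in the 4 fibroblast libraries and 12.8% to 42.4% in the 14 tissue libraries. In its exon at chr4:40723973-40724150 alone it was 46.9% to 50.7% in fibroblasts and 21.5% to 27.9% in tissues. Over the exons of Dnajc10, 2 to 5 by group, it was 27% to 27.7% in fibroblasts and 37% to 49.2% in tissues, and in the exon at chr2:80340473-80340600 alone 23.5% to 25.2% and 34.5% to 46.7%. For Hspa5, the Hsp70 of the ER, it was 32.6% to 33.9% in fibroblasts and 47.6% to 57.3% in ESC, heart, kidney and lung. Several members on the same chromosomes lay on the same side in DMSO-treated fibroblasts. On chromosome 2, with Dnajc10 and Hspa5, Hspa14 had 30.3% and 28.5%, Dnajc17 35.2% and 39.9% and Dnajc1 31.5% and 31.3%. On chromosome 4, with Dnaja1, Dnajc8 had 65.3% and 65.6% and Dnajc11 70.1% and 63.9%. Not all differed from tissues, as Dnajc1 had 22.9% and 39.1% in liver. The shift was thus not particular to the genes named, and its cause was not tested.

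The Dnajc19 exon at chr3:34080231-34080282 had 81.3% to 91.4% in all 18 libraries, and this gene has a pseudogene, Dnajc19-ps. Mean TPM of the pseudogene was 11.6 in cortex, 37.0 in heart and 31.2 in ESC, against 11.8, 18.6 and 18.4 for Dnajc19. In the Dnajb6 exon at chr5:29764399-29764530, read in fibroblasts, the share was 91.8% to 93.6%. The part of read mapping in these shares, and of the longer effective read lengths in the fibroblast tables, was not tested.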
